A study of Mus musculus with 12 samples.

Results

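Integrins and the proteins that link them to the cytoskeleton were followed as a set of 34 genes. These were 15 integrin subunits and 19 adaptors and scaffolds of the focal adhesion, chosen by gene symbol with earlier results of these data known. Shares of the set given beside those of all genes therefore describe the set and do not test it. Counts were found for 33 of the 34 among the 15990 genes tested, all 15 integrins and 18 of the 19 adaptors. Tns2 was not analysed here. RNA had been sequenced from the neurite and the soma side of dorsal root ganglion (DRG) cultures, each grown for 3 days from the ganglia of 1 adult C57B6 mouse on inserts with 1 µm pores. Such pores are meant to let neurites through while cell bodies stay above. Neurite libraries also held RNA of glial and proliferation markers, as given below, so they were not RNA of neurites alone. The 4 groups of 3 libraries were neurites of GAR+/- cultures (het), neurites of GAR+/+ cultures (WT), soma of het cultures and soma of WT cultures. GAR names a stretch of nucleolin, an RNA-binding protein, that is rich in glycine and arginine. All inserts were coated with poly-lysine and laminin, itself an integrin ligand, and the medium held serum. The labels do not say whether a neurite and a soma library with the same number came from 1 culture. The cultures held all cells recovered from the ganglia, so glia and other cells that do not form neurites were not removed.

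Integrins are pairs of an α and a β chain that span the membrane and bind matrix proteins such as laminin, fibronectin and collagen. Talins and kindlins bind the short β tail inside the cell and activate the receptor, while vinculin, filamin and α-actinin tie it to actin and kinases such as FAK pass the signal on. In sensory neurons integrins carry axon growth on laminin, and in satellite glia and Schwann cells they hold the cell to its basal lamina.

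The β tail is where integrins and adaptors of this set meet. The tails of the 4 β chains given by library in the genotype comparisons are shown as the last 144 coding bases. They run 5′ to 3′ on the coding strand. They were read from GENCODE M21 (GRCm38) for the protein-coding transcript with the most counts. The capitals mark the codons of the NPxY motif that phosphotyrosine-binding domains of talin and tensin recognise. Only this motif was searched, so related sites with other letters are not marked. The capitals do not tell which adaptor binds a marked site.
Itgb1: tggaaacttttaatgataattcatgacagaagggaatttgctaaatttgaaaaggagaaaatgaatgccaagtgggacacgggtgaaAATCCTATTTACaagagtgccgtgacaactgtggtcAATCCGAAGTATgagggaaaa
Itgb3: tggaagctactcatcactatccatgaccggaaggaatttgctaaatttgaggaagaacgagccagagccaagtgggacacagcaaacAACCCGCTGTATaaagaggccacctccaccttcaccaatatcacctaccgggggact
Itgb5: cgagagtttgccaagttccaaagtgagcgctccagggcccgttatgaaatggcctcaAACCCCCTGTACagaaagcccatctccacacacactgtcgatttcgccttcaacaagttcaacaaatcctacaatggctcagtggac
Itgb8: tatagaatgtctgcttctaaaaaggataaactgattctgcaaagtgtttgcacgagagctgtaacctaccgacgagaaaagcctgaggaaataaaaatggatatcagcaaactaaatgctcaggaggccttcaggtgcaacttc
The motif occurred at 2 places in Itgb1 (chr8:128685654-128733200, plus strand), at 1 in Itgb3 (chr11:104608000-104670476, plus strand) and at 1 in Itgb5 (chr16:33829665-33949338, plus strand). These letters are not in the same window of Itgb8 (chr12:119158022-119238802, minus strand). Of 44340 annotated coding ends of this length, read in frame on the coding strand, 171 (0.386%) held the motif.

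Libraries held 14965973 to 32434916 counts, and levels are given as CPM, which are counts scaled to the size of the library. The targeted gene Ncl averaged 380.1 ± 46.9 CPM in het neurites against 399.9 ± 72.1 CPM in WT neurites. In soma it averaged 266 ± 21.1 CPM in het against 231 ± 12.1 CPM in WT (SD, n = 3 each). Gene counts cannot show whether its GAR domain was changed. Labels call the 3 libraries of a group independent biological repeats. All 14 neuronal markers used were detected, and so were all 11 markers of satellite glia, 13 of Schwann cells and 8 of fibroblasts, with Sox10 on both glial lists. Among other cell types, Pecam1 and Tek of blood vessels and Csf1r, Aif1, Ptprc and Cx3cr1 of macrophages were not among the genes tested.

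The counts behind the set were mostly on transcripts that encode protein. Of 85 transcripts of the 33 genes, 48 were protein-coding in GENCODE M21, and 17 genes had all and 27 genes had at least 90% of their counts there. Itga3 had 64.6% on its coding transcript, and 5 genes lay under 50%. Those were Pxn at 36.2%, Ilk at 30.2%, Flna at 29.5%, Itga6 at 13.3% and Itgb4 at 0.0%. For Itga6, 82.2% of the counts lay on 1 processed transcript, and for Ilk 69.8% on a transcript marked for nonsense-mediated decay. How reads shared by several transcripts were counted is not given in the sources used here, and Gapdh averaged 121 counts per library, so levels are compared between groups and not between genes.

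**Figure D1:**
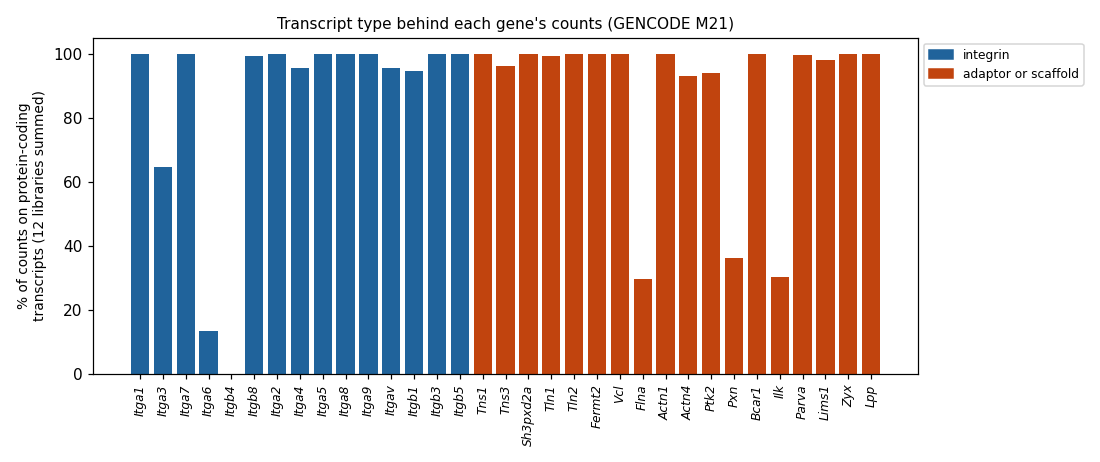
Bars give the percentage of each gene's counts, summed over 12 libraries, that lay on protein-coding transcripts, with integrins in blue and adaptors in orange. All but 6 genes stood above 90%, and Itgb4 had 0.0%.

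In WT cultures, Tns3, Sh3pxd2a and Parva were higher in neurites than in soma, and no member was lower. Tns3 encodes tensin-3, which binds β tails and actin, Sh3pxd2a encodes TKS5, the scaffold of podosomes and invadopodia, and Parva encodes α-parvin, an actin-binding partner of integrin-linked kinase. They make 3 of 33 members (9.09%), where 2.41% of all genes tested were called higher and 0.688% lower (edgeR quasi-likelihood test, Benjamini-Hochberg adjusted p under 0.05). Over the set, 32 of 33 log2 fold changes of neurites over soma were above 0, with a median of 0.37, against 50.7% and a median of 0.01 over all genes. In bulk samples fewer cells of a type and less RNA per cell cannot be told apart, here or in the comparisons that follow.

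Tns3 (chromosome 11, 8431652 to 8664535, minus strand, GRCm38) had 1255, 1075 and 954 CPM in the 3 WT neurite libraries and 558, 328 and 348 CPM in the WT soma libraries. All neurite libraries lay above all soma libraries, and the difference was 2.66-fold (log2 1.41 ± 0.20 SE, edgeR adjusted p = 0.00463). Sh3pxd2a (chromosome 19, 47260174 to 47464401, minus strand) had 32.3, 73.2 and 43.9 CPM in WT neurites and 17.2, 15.5 and 18.7 CPM in WT soma. The soma libraries were close together and the neurite libraries wide apart without overlap, a 2.91-fold difference (log2 1.54 ± 0.24 SE, edgeR adjusted p = 0.00625). Parva (chromosome 7, 112427505 to 112591692, plus strand) had 381, 372 and 293 CPM in WT neurites and 242, 227 and 237 CPM in WT soma. Its groups did not overlap either, at 1.48-fold (log2 0.57 ± 0.11 SE, edgeR adjusted p = 0.0178). Tns3 and Sh3pxd2a passed without any 1 library, while Parva did not without WT neurite replicate 1 or without WT soma replicate 1, 2 or 3 (edgeR adjusted p up to 0.0919). With only the 6 WT libraries in the fit, the edgeR adjusted p was 0.0455 for Tns3, 0.0679 for Sh3pxd2a and 0.0804 for Parva.

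With the replicate number as a block, 7 members were higher in WT neurites, against 5.98% of all genes. The block was an effect of each replicate number shared by all 12 libraries, het neurites included. The 4 additional members were 2 cytoskeletal and activating adaptors and 2 integrins. Actn4, the non-muscle α-actinin-4 that cross-links actin, had 301, 171 and 227 CPM in WT neurites and 142, 128 and 113 CPM in WT soma, with no overlap (log2 0.83 ± 0.13 SE, edgeR adjusted p = 0.00165 with the block and 0.0540 without it). Fermt2, the kindlin of most non-blood cells, had 642, 339.9 and 401 CPM in WT neurites and 357, 291 and 306 CPM in WT soma. The lowest neurite library lay within the soma range (log2 0.50 ± 0.12 SE, edgeR adjusted p = 0.0144 with the block and 0.170 without). Itgav, the αv chain of vitronectin receptors, had 99.4, 47.8 and 76.4 CPM in WT neurites and 49.5, 43.8 and 38.9 CPM in WT soma. WT neurite replicate 2 lay among the soma libraries (log2 0.72 ± 0.20 SE, edgeR adjusted p = 0.0477 with the block and 0.148 without). Itgb1, the β chain shared by laminin, collagen and fibronectin receptors, had 1073, 664 and 779 CPM in WT neurites and 634, 566 and 541 CPM in WT soma. Those groups did not overlap (log2 0.51 ± 0.14 SE, edgeR adjusted p = 0.0318 with the block and 0.144 without).

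Among the integrins, 14 of 15 log2 fold changes of WT neurites over WT soma were above 0, with a median of 0.47, and none passed without the block. The α chains known from sensory neurons were Itga1, a collagen and laminin receptor, at 0.64 ± 0.34, and the laminin receptors Itga3 and Itga7 at 0.21 ± 0.30 and -0.07 ± 0.21 (log2 ± SE). Itga7, which is known to be raised in sensory neurons after nerve injury, was the member below 0. The chains known from glia were Itga6 at 0.37 ± 0.25 and Itgb4 at 0.77 ± 0.54, which pair as a laminin receptor of myelinating Schwann cells, and Itgb8, which binds latent TGF-β, at 0.47 ± 0.19 (log2 ± SE). Itgb4 rested on 129 counts in all 12 libraries and Itga8 on 84, close to the floor of 0.0925 to 0.200 CPM that 3 counts give. The other 9 integrins lay between 0.17 and 0.76 on the log2 scale.

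All 18 adaptors had a log2 fold change above 0 in WT, with a median of 0.29. The tensin Tns1 lay at 0.19 ± 0.14 beside Tns3 at 1.41 ± 0.20 (log2 ± SE). The talins Tln1 and Tln2, which activate integrins, lay at 0.17 ± 0.13 and 0.24 ± 0.10, and vinculin (Vcl), which bridges talin and actin, at 0.34 ± 0.17. The kinase FAK (Ptk2) lay at 0.22 ± 0.10, its scaffold paxillin (Pxn) at 0.46 ± 0.17 and p130Cas (Bcar1) at 0.10 ± 0.09. Ilk, the pseudokinase that holds parvin and PINCH at the β tail, lay at 0.23 ± 0.14, and PINCH-1 (Lims1) at 0.15 ± 0.11. Zyxin (Zyx) and its relative Lpp, which sense tension at actin fibres, lay at 0.20 ± 0.11 and 0.33 ± 0.27, and the actin cross-linkers Flna and Actn1 at 0.38 ± 0.38 and 0.25 ± 0.23. Apart from Tns3 the genes of this paragraph did not pass, with edgeR adjusted p between 0.142 and 0.632, which does not show that their levels were alike.

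**Figure D2:**
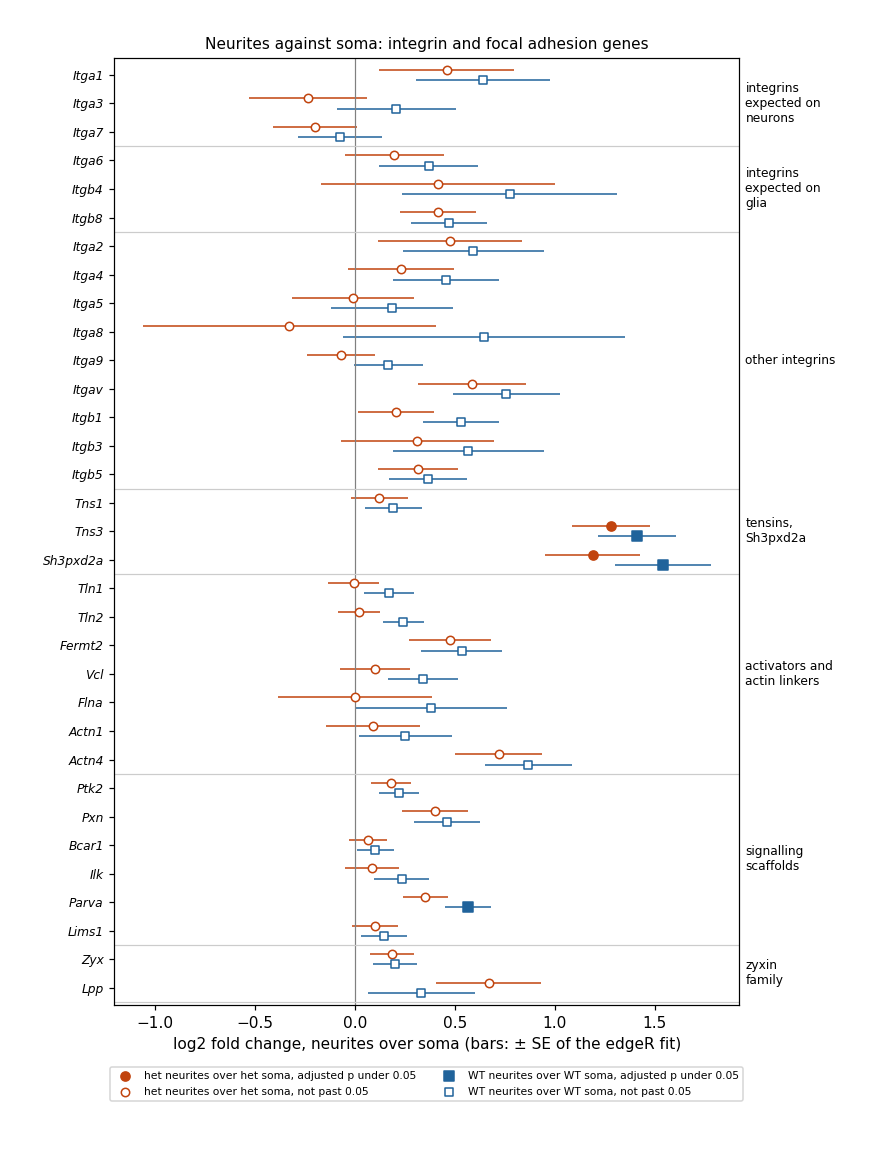
Points give the log2 fold change of neurites over soma for 33 genes in het (orange circles) and WT (blue squares) cultures, with bars of ± SE from the edgeR fit, and filled points passed an adjusted p of 0.05. Tns3 and Sh3pxd2a stand to the right of all others in both genotypes.

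In het cultures Tns3 and Sh3pxd2a were again higher in neurites, and no other member passed. They make 2 of 33 members (6.06%), where 0.544% of all genes were called higher and 0.0938% lower. Tns3 had 787, 641 and 614 CPM in het neurites and 309, 229.9 and 299.8 CPM in het soma. The groups stood far apart, at 2.43-fold (log2 1.28 ± 0.19 SE, edgeR adjusted p = 0.0215). Sh3pxd2a had 31.1, 38.5 and 28.5 CPM in het neurites and 12.9, 14.2 and 16.0 CPM in het soma. The lowest neurite library was well above the highest soma library, at 2.28-fold (log2 1.19 ± 0.24 SE, edgeR adjusted p = 0.0484). Sh3pxd2a did not pass without any 1 of the 6 het libraries (edgeR adjusted p 0.0700 to 0.233), and Tns3 did not pass without het neurite replicate 1 or het soma replicate 1, 2 or 3 (up to 0.162). Log2 fold changes in those fits stayed between 1.05 and 1.37.

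Of the other adaptors, Parva had 290.2, 239.8 and 247 CPM in het neurites and 219.6, 198 and 191 CPM in het soma. Actn4 had 207, 122 and 136 CPM in het neurites and 98.2, 81.7 and 103 CPM in het soma. Neither gene's groups overlapped, with edgeR adjusted p of 0.174 for Parva and 0.168 for Actn4. Fermt2 had 415, 299 and 292 CPM in het neurites and 256, 233 and 234 CPM in het soma, again without overlap (edgeR adjusted p = 0.313). In all, 7 of 33 members (21.2%) lay higher in every het neurite library than in any het soma library, among them no integrin, against 11.7% of all genes. In WT this held for 8 members (24.2%), among them the integrins Itgb1, Itgb4 and Itgb8, against 12.4% of all genes. Integrins in het had a median log2 fold change of 0.23 with 10 of 15 above 0, and adaptors a median of 0.15 with 16 of 18 above 0, where all genes had 49.2% above 0.

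**Figure D3:**
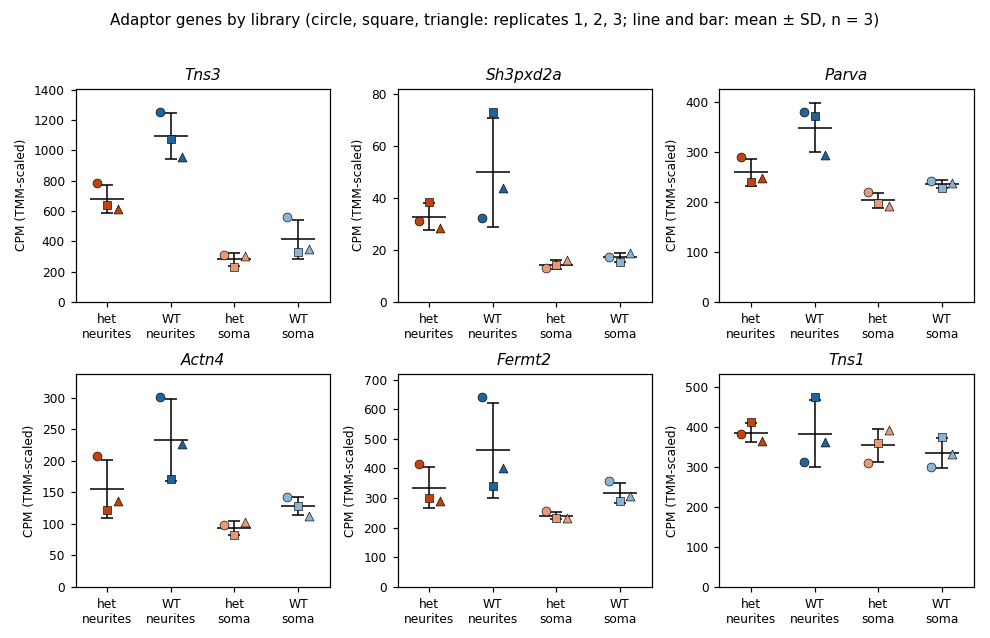
Each panel gives the CPM of 1 adaptor gene in het neurites, WT neurites, het soma and WT soma, with 1 symbol per library and lines for mean ± SD (n = 3 each). Tns3 and Sh3pxd2a lie higher in every neurite library than in any soma library of the same genotype, while the groups of Tns1 overlap.

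Markers of cell types moved with the compartment. In WT, 3 of 14 neuronal markers were lower in neurites than in soma (Calca, Rbfox3 and Uchl1), and the list's summed level was 10380 to 13547 CPM in WT neurites and 14028 to 16139 CPM in WT soma. Of 11 satellite glia markers 2 were higher in WT neurites (Sox2 and Sox10), with sums of 1743 to 1826 CPM in WT neurites and 1142 to 1501 CPM in WT soma. Of 13 Schwann cell markers, Prx and Sox10 were higher and Ngfr was lower in WT neurites. Of 10 markers of endothelium, pericytes and smooth muscle, Des was higher in WT neurites, and all 10 lay above 0 with a median log2 fold change of 0.62, against 0.54 for satellite glia. Their sums were 616 to 757 CPM in WT neurites and 504 to 594 CPM in WT soma. Of 8 proliferation markers none passed, with 7 above 0, a median of 0.47 and sums of 629.8 to 1146 CPM in WT neurites and 542 to 762 CPM in WT soma. No fibroblast or macrophage marker passed, with medians of 0.11 and -0.33. Of all genes tested, 2.41% were called higher and 0.688% lower in WT neurites. In het, 1 Schwann cell marker (Ngfr) was lower in neurites and no neuronal marker of the 14 passed. All 14 neuronal log2 fold changes of het neurites over het soma were below 0, with a median of -0.34. Neuronal sums were 11925 to 15652 CPM in het neurites and 15647 to 18561 CPM in het soma. Satellite glia sums were 1153 to 1477 CPM in het neurites and 1049 to 1138 CPM in het soma, and all 11 markers lay above 0. The median log2 fold change of het neurites over het soma was 0.34 for endothelium, pericytes and smooth muscle and 0.25 for proliferation markers. Of all genes tested, 0.544% were called higher and 0.0938% lower in het neurites. The part of these cell types in the values of Tns3, Sh3pxd2a, Parva and the integrins was not tested.

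Between genotypes in neurites, Itgb8 was the member that passed, and it was lower in het. It is known from satellite glia and Schwann cells and binds latent TGF-β. Itgb8 had 1705, 1160.1 and 991 CPM in het neurites and 2260.0, 1907 and 2701 CPM in WT neurites. The groups did not overlap, and the level was 1.78-fold lower in het (log2 -0.83 ± 0.19 SE, edgeR adjusted p = 0.0349). This is 1 of 33 members (3.03%), close to the 2.78% of all genes called lower (0.494% were called higher). DESeq2, limma voom and the replicate block called more members, with counts given below under the dependence on processing. Itgb8 did not pass without WT neurite replicate 1 or 3 or without het neurite replicate 2 or 3 (edgeR adjusted p up to 0.156), nor in fits of the neurite libraries alone (up to 0.136). Without WT neurite replicate 2 or het neurite replicate 1, 11 and 14 members passed, and the count over the 6 fits that each left out 1 library ranged from 0 to 14. The share of all genes called in those fits is not given, so these counts cannot be read as particular to the set.

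Of the 33 log2 fold changes of het over WT neurites 30 were below 0, that of Itgb8 included, with a median of -0.46, against 51.5% below 0 and a median of -0.01 over all genes. All 15 integrins were below 0, with a median of -0.83, and 15 of 18 adaptors, with a median of -0.36. In 10 members (30.3%) every het neurite library lay below every WT neurite library, against 10.8% of all genes. Those were the integrins Itga9, Itgav, Itgb4, Itgb5 and Itgb8 and the adaptors Lims1, Parva, Ptk2, Tln2 and Tns3. The WT neurite libraries serve here and in the comparison with WT soma, so the values of both comparisons are not independent.

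Several integrins came near the threshold. Itgav had 46.8, 33.6 and 24.0 CPM in het neurites and 99.4, 47.8 and 76.4 CPM in WT neurites. Its het replicate 1 lay just under WT replicate 2 (log2 -1.10 ± 0.27 SE, edgeR adjusted p = 0.0501). Itgb5, a partner of αv in vitronectin binding, had 17.1, 11.9 and 9.20 CPM in het neurites and 25.3, 17.6 and 21.3 CPM in WT neurites, close but without overlap (log2 -0.75 ± 0.20 SE, edgeR adjusted p = 0.0501). Itga1 had 86.6, 44.8 and 40.2 CPM in het neurites and 168, 73.5 and 151 CPM in WT neurites. WT replicate 2 lay inside the het range (log2 -1.20 ± 0.34 SE, edgeR adjusted p = 0.0878). Itgb1 had 692, 549 and 401 CPM in het neurites and 1073, 664 and 779 CPM in WT neurites, with a like overlap (log2 -0.62 ± 0.19 SE, edgeR adjusted p = 0.0919). Itgb3, the other β partner of αv, had 26.6, 16.7 and 15.7 CPM in het neurites and 58.6, 22.5 and 37.4 CPM in WT neurites. WT replicate 2 was again the low WT library (log2 -1.01 ± 0.38 SE, edgeR adjusted p = 0.170).

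Within the integrins the chains known from neurons spread widely. Beside Itga1, Itga3 lay at -0.40 ± 0.30 and Itga7 at -0.19 ± 0.21 (log2 of het over WT neurites ± SE), and Itga7 averaged 1607 ± 434 CPM in het neurites and 1836 ± 372 CPM in WT neurites (SD, n = 3 each). The chains known from glia were Itga6 at -0.86 ± 0.25, Itgb4, which rested on few counts, at -0.96 ± 0.55 and Itgb8 at -0.83 ± 0.19. These values lay within the range of the 9 integrins on neither list, -1.10 to -0.28. Of the remaining α chains, the collagen receptor chain Itga2 lay at -1.04 ± 0.36, Itga8 at -0.98 ± 0.74, Itga4 at -0.47 ± 0.27, the fibronectin receptor chain Itga5 at -0.32 ± 0.31 and Itga9 at -0.28 ± 0.17. The difference between neuronal, glial and adaptor genes was described only, since these genes are not replicates.

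Among the adaptors, Tns3 was at 787, 641 and 614 CPM in het neurites against 1255, 1075 and 954 CPM in WT neurites, with no overlap and 1.61-fold lower in het (log2 -0.69 ± 0.19 SE, edgeR adjusted p = 0.0687). Parva was lower in every het neurite library (log2 -0.43 ± 0.11 SE, edgeR adjusted p = 0.0501). Ptk2 had 81.4, 72.7 and 78.2 CPM in het neurites and 104, 89.0 and 104 CPM in WT neurites, also apart (log2 -0.35 ± 0.10 SE, edgeR adjusted p = 0.0682). Tln2 had 183, 148 and 144 CPM in het neurites and 200.1, 216 and 193 CPM in WT neurites. Its groups were apart by a small gap (log2 -0.36 ± 0.10 SE, edgeR adjusted p = 0.0680). Vcl had 554, 418 and 353 CPM in het neurites and 727, 499 and 708 CPM in WT neurites. Flna had 20.0, 9.21 and 9.07 CPM in het neurites and 31.9, 15.9 and 23.6 CPM in WT neurites. Actn1 had 48.7, 38.0 and 43.3 CPM in het neurites and 78.6, 39.9 and 57.4 CPM in WT neurites. In these 3 genes het replicate 1 reached above WT replicate 2, and edgeR adjusted p was 0.0971 for Vcl, 0.213 for Flna and 0.311 for Actn1. Actn4, Fermt2 and Sh3pxd2a lay at -0.59 ± 0.22, -0.46 ± 0.20 and -0.61 ± 0.23, with overlap (log2 ± SE).

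The 8 remaining adaptors lay nearer 0. Lims1 was at -0.27 ± 0.11, Pxn at -0.28 ± 0.17, Bcar1 at -0.19 ± 0.09, Tln1 at -0.17 ± 0.13 and Ilk at -0.12 ± 0.14. The 3 members above 0 were Tns1 at 0.01 ± 0.14, Zyx at 0.05 ± 0.11 and Lpp at 0.13 ± 0.26 (log2 of het over WT neurites ± SE).

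**Figure D4:**
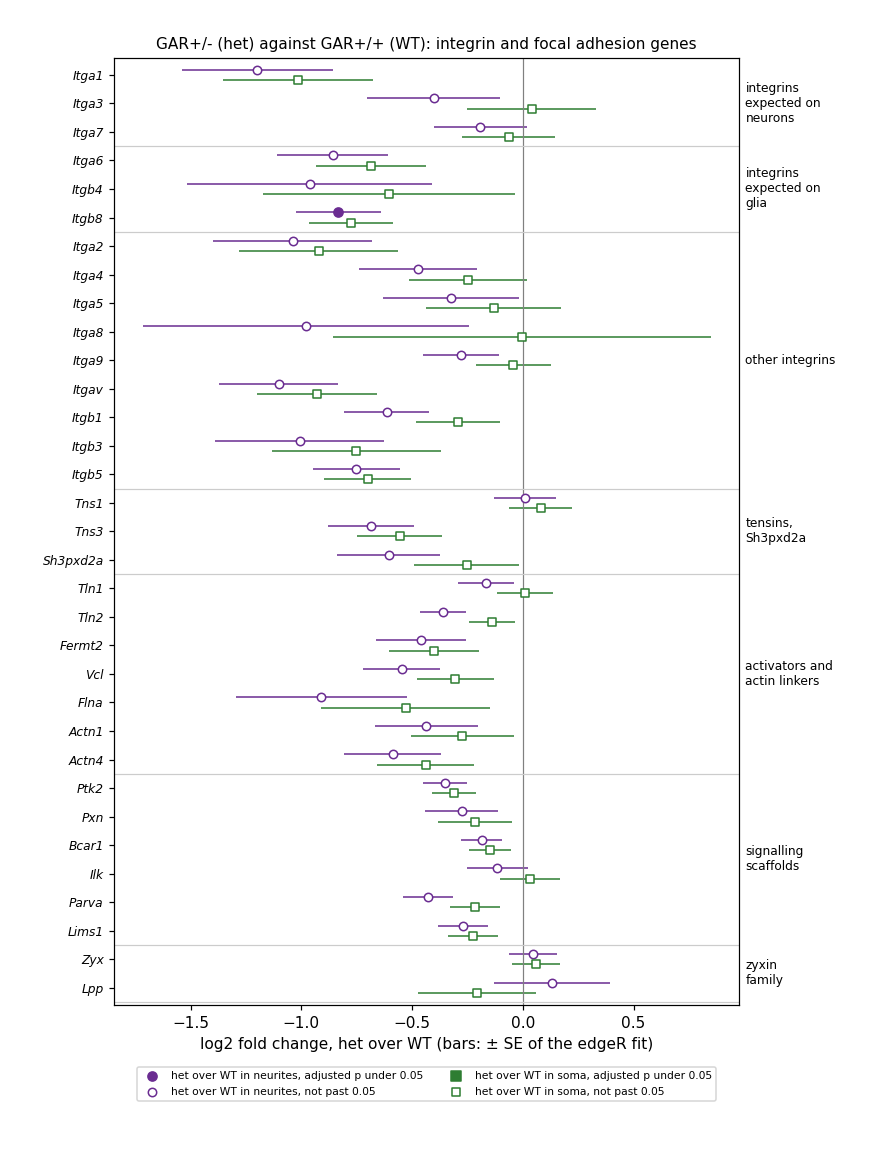
Points give the log2 fold change of het over WT for 33 genes in neurites (purple circles) and soma (green squares), with bars of ± SE from the edgeR fit, and the filled point, Itgb8 in neurites, passed an adjusted p of 0.05. All 15 integrins lie left of 0 in neurites, and 14 of 15 in soma.

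In soma no member passed between genotypes, as no gene of the 15990 did (0.0% called in either direction by edgeR). At an unadjusted p under 0.05 there were 8 members, all lower in het, and 1464 genes in all, 1127 of them lower. Over the set, 28 of 33 log2 fold changes of het over WT soma were below 0, with a median of -0.25, against 48.5% below 0 over all genes. Integrins had a median of -0.61 with 14 of 15 below 0, and adaptors a median of -0.22 with 14 of 18 below 0. In 15 members (45.5%), 8 integrins and 7 adaptors, every het soma library lay below every WT soma library, against 11.9% of all genes. DESeq2 called 4 members lower (Itga1, Itgav, Itgb5 and Itgb8), against 2.58% of the genes it adjusted.

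With the replicate block, again shared by all 12 libraries, 4 members were lower in het soma, against 3.09% of all genes lower and 0.163% higher. Itgb5 had 10.8, 8.78 and 11.0 CPM in het soma and 18.3, 15.7 and 15.7 CPM in WT soma, clearly apart (log2 -0.70 ± 0.15 SE, edgeR adjusted p = 0.0149 with the block and 0.182 without). Tns3 had 309, 229.9 and 299.8 CPM in het soma and 558, 328 and 348 CPM in WT soma, apart by a small gap (log2 -0.53 ± 0.12 SE, edgeR adjusted p = 0.0178 with the block and 0.335 without). Itgav had 23.7, 20.2 and 25.5 CPM in het soma and 49.5, 43.8 and 38.9 CPM in WT soma. No library of one group came near the other (log2 -0.93 ± 0.21 SE, edgeR adjusted p = 0.0343 with the block and 0.231 without). Itgb3 had 16.7, 10.8 and 19.9 CPM in het soma and 35.8, 18.8 and 25.3 CPM in WT soma. Het replicate 3 lay above WT replicate 2 (log2 -0.73 ± 0.18 SE, edgeR adjusted p = 0.0394 with the block and 0.614 without).

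Other integrins had no overlap in soma but did not pass. Itga1 had 41.6, 35.8 and 47.2 CPM in het soma and 83.1, 77.5 and 91.2 CPM in WT soma, far apart (log2 -1.02 ± 0.34 SE, edgeR adjusted p = 0.345). Itgb8 had 993, 887 and 1008 CPM in het soma and 1316, 1815 and 1818 CPM in WT soma, also apart (log2 -0.78 ± 0.19 SE, edgeR adjusted p = 0.145). Itgb1 had 476, 436 and 511 CPM in het soma and 634, 566 and 541 CPM in WT soma, with a narrow gap (log2 -0.29 ± 0.19 SE, edgeR adjusted p = 0.703). Itga6, Itga2 and Itga4 completed the 8 integrins without overlap, at -0.69 ± 0.25, -0.92 ± 0.36 and -0.25 ± 0.27 (log2 ± SE). Itga3, Itga7, Itga8 and Itga9 lay between -0.06 and 0.04, Itga5 at -0.13 ± 0.31 and Itgb4 at -0.61 ± 0.57.

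The adaptors without overlap in soma were Tns3, Actn4, Fermt2, Vcl, Bcar1, Parva and Ptk2. Actn4 lay at -0.44 ± 0.22, Fermt2 at -0.40 ± 0.20, Parva at -0.21 ± 0.11 and Bcar1 at -0.15 ± 0.09 (log2 of het over WT soma ± SE). Ptk2 had 73.0, 66.5 and 65.5 CPM in het soma and 76.7, 84.5 and 93.0 CPM in WT soma (log2 -0.31 ± 0.10 SE, edgeR adjusted p = 0.270). Vcl had 385, 357 and 494 CPM in het soma and 502, 524 and 501 CPM in WT soma. The highest het library of Vcl lay just under the WT libraries (edgeR adjusted p = 0.657). Tln2 had 165, 149 and 153 CPM in het soma and 182, 174 and 160.1 CPM in WT soma. Actn1 had 43.8, 32.1 and 46.1 CPM in het soma and 61.8, 39.9 and 45.8 CPM in WT soma. Flna had 14.5, 9.55 and 13.9 CPM in het soma and 26.5, 15.6 and 12.7 CPM in WT soma. These groups overlapped. The remaining adaptors in soma lay between -0.25 and 0.08 on the log2 scale.

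**Figure D5:**
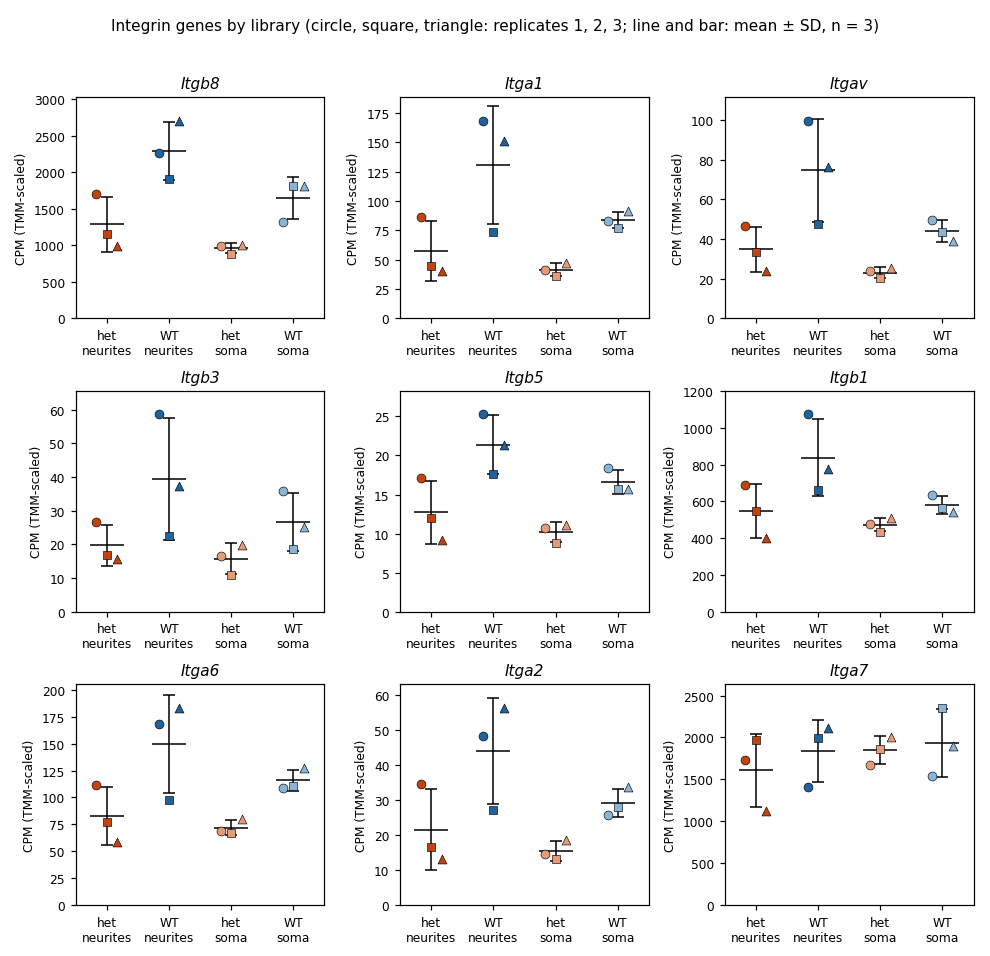
Each panel gives the CPM of 1 integrin gene in het neurites, WT neurites, het soma and WT soma, with 1 symbol per library and lines for mean ± SD (n = 3 each). In het soma every library of Itgb8, Itga1, Itgav, Itgb5, Itgb1, Itga6 and Itga2 lies below every WT soma library, while the groups of Itga7 overlap.

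Markers of other cells moved with genotype as well. In het neurites against WT neurites, 5 of 11 satellite glia markers were lower (Apoe, Fabp7, Gja1, Sox2 and Sox10), with a median log2 fold change of -0.86 and sums of 1153 to 1477 CPM in het neurites and 1743 to 1826 CPM in WT neurites. Of 13 Schwann cell markers 3 were lower (Egr2, Prx and Sox10), with a median of -0.31. Of 8 proliferation markers 4 were lower (Aurkb, Cdk1, Mki67 and Top2a), with a median of -1.26 and sums of 309.8 to 560.3 CPM in het neurites and 629.8 to 1146 CPM in WT neurites. These lists and the integrins all had medians below 0 in this comparison. Of the fibroblast markers Fbln1 was lower, with a median of -0.62, and of the vessel and muscle markers Des and Myh11, with a median of -0.84. The sums of the vessel and muscle list overlapped, at 548 to 659 CPM in het neurites and 616 to 757 CPM in WT neurites. No macrophage marker passed, and their median was 0.30. Of the neuronal markers Uchl1 was higher, with a neuronal median of 0.24. Of all genes tested, 2.78% were called lower and 0.494% higher.

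In soma no marker passed between genotypes. The median log2 fold change of het over WT soma was -0.67 for satellite glia, -0.15 for Schwann cells, -0.61 for fibroblasts, -1.12 for proliferating cells and 0.17 for neurons. It was -0.41 for endothelium, pericytes and smooth muscle and 0.34 for macrophages, with all 6 macrophage markers tested above 0. Satellite glia sums were 1049 to 1138 CPM in het soma and 1142 to 1501 CPM in WT soma, and those of proliferating cells 239 to 325 CPM in het soma and 542 to 762 CPM in WT soma. The part of these cell types in the integrin and adaptor values was not tested.

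Whether the neurite-to-soma difference itself changed with genotype was tested as an interaction, and no member passed, as no gene of the 15990 did (0.0%). At an unadjusted p under 0.05 in edgeR there were 0 members and 202 genes, and DESeq2, limma voom and the replicate block also called 0 members. The member values ran from -0.97 to 0.34 on the log2 scale, for Itga8 and Lpp. Of these values 32 of 33 were below 0, with a median of -0.17, against 53.2% below 0 over all genes. The smallest unadjusted p of a member in edgeR was 0.150, for Tln2. For Tns3 the difference of differences was -0.13 ± 0.27 and for Sh3pxd2a -0.35 ± 0.33 (log2 ± SE). These values do not show that the difference was the same in both genotypes.

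The authors' deposited table, made per transcript within each compartment, called more members than the fit per gene. In soma it listed 16 of 87 member transcripts, from 11 genes, lower in het at a false discovery rate under 0.05 and 0 higher, against 3.45% of all transcripts lower and 0.793% higher. In neurites the authors' deposited table listed 16 of 90 member transcripts, from 12 genes, lower in het and 0 higher, against 2.64% lower and 0.387% higher. Itga1 stood in the authors' deposited table at a log2 fold change of -1.17 in neurites (false discovery rate 1.67e-06) and of -1.01 in soma (6.89e-24). The genes listed in both compartments of the authors' deposited table were Actn4, Flna, Itga1, Itga2, Itga6, Itgav, Itgb3, Itgb5, Itgb8 and Tns3, with Fermt2 in soma alone and Itgb1 and Vcl in neurites alone.

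Of 55 other focal adhesion genes, 52 were tested. In WT neurites against WT soma 6 were higher and 0 lower, led by Kank2, which anchors microtubules beside talin, at 1.05 ± 0.12, and Dock1, a Rac activator downstream of p130Cas, at 0.80 ± 0.14 (log2 ± SE, edgeR adjusted p = 0.00253 and 0.00921). In het neurites against het soma 3 were higher, led by Kank2 at 0.77 ± 0.12 and the intermediate filament vimentin (Vim) at 0.71 ± 0.13 (edgeR adjusted p = 0.0202 and 0.0309). In het neurites against WT neurites 7 were lower and 0 higher, led by Kank2 at -0.94 ± 0.12 and Kank1 at -0.63 ± 0.13 (edgeR adjusted p = 0.0100 and 0.0232). In het soma against WT soma none passed. Of all genes tested, 2.41% were called higher in WT neurites against WT soma and 0.544% in het neurites against het soma. In het neurites against WT neurites 2.78% of all genes were called lower. The median log2 fold change of these 52 genes was 0.16 in WT neurites over WT soma and 0.20 in het neurites over het soma. It was -0.13 in het over WT neurites and -0.15 in het over WT soma. Each lay nearer 0 than the integrin median of the same comparison. The adaptor median of het neurites over het soma, 0.15, was nearer 0 still. In het neurites against WT neurites 13.5% of the 52 genes were called lower, against 3.03% of members.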

How the data were processed

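The submitters' processing notes name CASAVA 1.8.2, edgeR and mm10 (GRCm38). The sources used here name no aligner or counter. Raw counts were deposited by the authors per Ensembl transcript, in 1 table per compartment. Per the file headers, the authors' own edgeR comparison of each compartment is given as log2 fold changes, which run het over WT in the column used here. Each transcript also has the authors' p-value and their false discovery rate, per the file headers. The deposited normalised columns (a scaled signal) were not used, and neither were 24 further per-sample columns. Every deposited transcript had at least 5 counts in 3 of its table's 6 libraries, so each compartment had been filtered separately.

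Counts of the 31420 named transcripts present in both tables were summed per gene name, and between 0.574% and 0.694% of a library's counts had no gene name and were left out. The fit was edgeR's robust quasi-likelihood model (version 4.0.16, R 4.3.3) after filterByExpr and TMM scaling, with 1 mean per group and 1 spread over 12 libraries. P-values were 2-sided and adjusted by Benjamini-Hochberg over the 15990 genes tested in each of 5 contrasts, with a threshold of 0.05. The biological coefficient of variation was 0.163. CPM were computed on the library size after TMM scaling. A count of 0 allows a true mean of 3 counts, between 0.0925 and 0.200 CPM by library, for counting error only.

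The members and the other lists were chosen with earlier results of these data known. All members are accounted for, and those past the threshold in any contrast, with or without a replicate term, have their values given in every library. Of the other focal adhesion genes, other integrin genes and matrix ligands, at most 2 per direction and contrast with the smallest p among those past the threshold are named.

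The labels do not state what a replicate number marks. Same-numbered libraries deviated together, with a correlation over 0.1 in every pair, for WT neurites and WT soma (0.230 to 0.341), het soma and WT soma (0.159 to 0.273), het neurites and WT soma (0.147 to 0.256) and WT neurites and het soma (0.131 to 0.238). The first pair of groups and the second are contrasts, and there the fit with a replicate block is given beside the results. That fit used all 12 libraries with the same replicate effect in every group, so the effect was also applied to het neurites. The lowest correlation was -0.0373 between het neurites and WT neurites and 0.0504 between het neurites and het soma, both in replicate 3. For these contrasts the block was therefore kept as an alternative, and the pairing of their libraries is unresolved.

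Alternatives were DESeq2 1.42.0, limma voom (limma 3.58.1), no filter, the libraries of the groups compared alone, all transcripts of a compartment's own table, and leaving out each library. A fit on protein-coding transcripts only was chosen after seeing the data. One marker gene is not reported here. Transcript types and gene positions came from GENCODE M21.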

Additional observations from a re-analysis of the deposited data

How the results depend on the processing

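The number of members past the threshold depended on the fit, and no called direction turned. In WT neurites against WT soma it was 3, and 5 with DESeq2, where 7.71% of the genes it adjusted were higher. It was 1 with the libraries of the groups alone and 7 with the replicate block. With a library left out it was 2 to 6 (6 without WT neurite replicate 2). In het neurites against het soma it was 2, and 3 with DESeq2, where 3.44% of the genes it adjusted were higher. It was 5 with the replicate block and 0 to 1 with a library left out. In het soma against WT soma it was 0, and 4 with DESeq2, 7 with the libraries of the groups alone, 7 with all transcripts of the soma table, 4 with the replicate block and 0 with any library left out. In het neurites against WT neurites it was 1, and 11 with DESeq2 (6.83% of all genes it adjusted were then lower), 4 with limma voom, 3 without a filter, 3 on protein-coding transcripts only, 15 with the replicate block, 0 with the libraries of the groups alone, 0 with all transcripts of the neurite table, and 0 to 14 with a library left out. The interaction stayed at 0 in every fit run. The cause of these moves was not tested. Fits with fewer libraries hold fewer degrees of freedom, and some of them called more members and others fewer. Where no share of all genes is given for a fit, its member count cannot be read as particular to the set.

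In the contrasts of het neurites the pairing is unresolved. Each het neurite and het soma library correlated best with its own number in the other group, a hint from the data and not the design, while for het neurites and WT neurites this did not hold in replicate 3. With the replicate block, 7.75% of all genes were lower in het than in WT neurites, against 2.78% without it, and 2.53% were higher in het neurites than in het soma, against 0.544% without it. Across single members and fits, 2250 values kept their side of the threshold, 89 passed only in the alternative and 22 no longer passed. Itgb4 and Itga8, with 129 and 84 counts in all, rest on few reads, and depth limits any statement on their direction.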

Other observations

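Matrix proteins that integrins bind (laminin chains, nidogens, fibronectin, vitronectin, tenascin-C and others) were measured for 17 of 20 genes, and none passed in any comparison (edgeR, Benjamini-Hochberg adjusted p under 0.05). The log2 fold change was below 0 in 16 of 17 in het over WT neurites, with a median of -0.87, and in 16 of 17 in het over WT soma, with a median of -0.62. In 9 of 17 (52.9%) every het soma library lay below every WT soma library, against 11.9% of all genes. In WT neurites over WT soma the median was 0.28, and in het neurites over het soma 0.06.

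Integrin genes outside the set, mostly of leukocytes and platelets, were tested for 7 of 13, and none passed. Their log2 fold change was below 0 in 7 of 7 in WT neurites over WT soma, with a median of -0.61, and above 0 in 5 of 7 in het over WT neurites, with a median of 0.15.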
